A study of Columba livia with 12 samples.

Results

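The genes described here are 95 genes of DNA replication and mitosis, and of families named after them, among the 12918 genes of an mRNA table from pigeon breast muscle. They were chosen by name. The rule took every gene whose RefSeq pigeon symbol begins with MCM, ORC or CDC and a digit (CDC42 genes left out), or with CENP, KIF, NCAP, AURK or PLK. CDK1, RRM2, TYMS, SPC25, CKAP2, MKI67 and STMN1 were added to it. A mean of at least 1 TPM over the libraries was also required. TPM is a length-corrected level, given as a share of all transcripts of a library. The reference annotation holds 106 such symbols, 99 of which were found in the table, while CDC26, KIF6, KIF12, KIF17, KIF21B, KIF26B and MCM7 were not analysed here. KIF25 (0.94 TPM), KIF5C (0.60 TPM), KIF1A (0.58 TPM) and CDC20B (0.32 TPM) lay under the limit of 1 TPM, and KIF9 (1.11 TPM) was the lowest above it. By textbook role 19 of the 95 genes were counted to DNA replication and 49 to mitosis. The other 27 were counted as matched by name only, most of them known for other work. Some roles could be placed otherwise, such as those of CENPV (counted by name only) and KIF24 (counted as a spindle kinesin).

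A cell copies its genome once per division. The origin recognition complex marks where copying starts, CDC6 loads the ring of MCM proteins there, and CDC45 and the CDC7 kinase turn that ring into the working helicase, while RRM2 and TYMS supply deoxynucleotides. In mitosis CDK1, Aurora and Polo kinases drive the cell forward, condensins compact the chromosomes, kinetochores tie them to spindle fibres that kinesin motors slide and shorten, and the anaphase-promoting complex releases the sister chromatids. Muscle fibres themselves do not divide. The nuclei that fibres gain during growth come from dividing myoblasts and satellite cells, and fibroblasts, vessel cells and blood cells of the tissue divide as well.

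The study followed breast muscle of White-King pigeons over age, with RNA sequenced from frozen tissue. Libraries of birds aged 1 day (1D), 14 days (14D) and 28 days (28D) were used here, 3 per stage. The labels also list 3 libraries of birds 2 years old (2Y), which were not analysed here. All birds are of the 1 strain, and no treatment or genotype is given. The labels do not say whether the libraries of a stage come from separate birds, so p-values measure the spread between these libraries, which may be technical. TPM keeps no read count, so the depth is unknown. Skeletal muscle markers fitted the labelled tissue. The 12 measured summed to 44438 to 53922 TPM at 1D, 59126 to 68156 TPM at 14D and 52434 to 53337 TPM at 28D. ACTA1, skeletal actin, had 12345 ± 1534 at 1D, 23680 ± 3134 at 14D and 18064 ± 886 TPM at 28D (SD, n = 3 each). The 12 shared no direction, with log2 changes from -1.87 to 1.14 at 28D relative to 1D. The deposited values of the mRNA table sum to 835976 to 844829 TPM at 1D, 737968 to 787201 TPM at 14D and 761954 to 790319 TPM at 28D. The median gene changed by -0.31 (log2) at 14D relative to 1D, by -0.07 at 28D relative to 14D and by -0.38 at 28D relative to 1D. After the libraries were rescaled to a common median ratio these shifts were 0.01, -0.02 and -0.01. Changes below are of log2(TPM + 1), which understates the change of low genes, and a call needed an adjusted p below 0.05 (limma, Benjamini-Hochberg over 11951 genes). All 95 genes were among those tested. The 14D and 28D comparisons share libraries, so their values are set side by side only.

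Of the 3 stages used, nearly all replication and mitosis genes were highest in the muscle of 1-day-old pigeons. By 14 days the median gene of either class had dropped to a small part of that level. Some genes kept more, such as ORC2 with 51.9% and CDC27 with 73.5% of their 1D mean. All 19 replication genes and 44 of 49 mitosis genes fell at 14D relative to 1D, and none of these 68 genes rose. MCM9 among them passed the filter on its 1D libraries alone, and CDC7 only with their help, as set out below. Some other low genes met the mean limit of the rule only with their 1D level. The median change was -1.92 for replication and -1.85 for mitosis, against -0.31 for all genes tested. Of all genes tested, 39.2% fell and 13.6% rose in that comparison, and after rescaling 25.9% fell and 24.5% rose. The rescaled values left 18 replication genes and 43 mitosis genes lower and none of either higher. ORC2, a subunit of the origin recognition complex, and CDC27, a subunit of the anaphase-promoting complex, were the pair that lost their calls. The moderated F test over the 3 stages called 19 replication genes and 45 mitosis genes changed, against 58.4% of all genes tested. In bulk tissue, fewer cells of a type and less RNA per cell cannot be told apart.

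**Figure D1:**
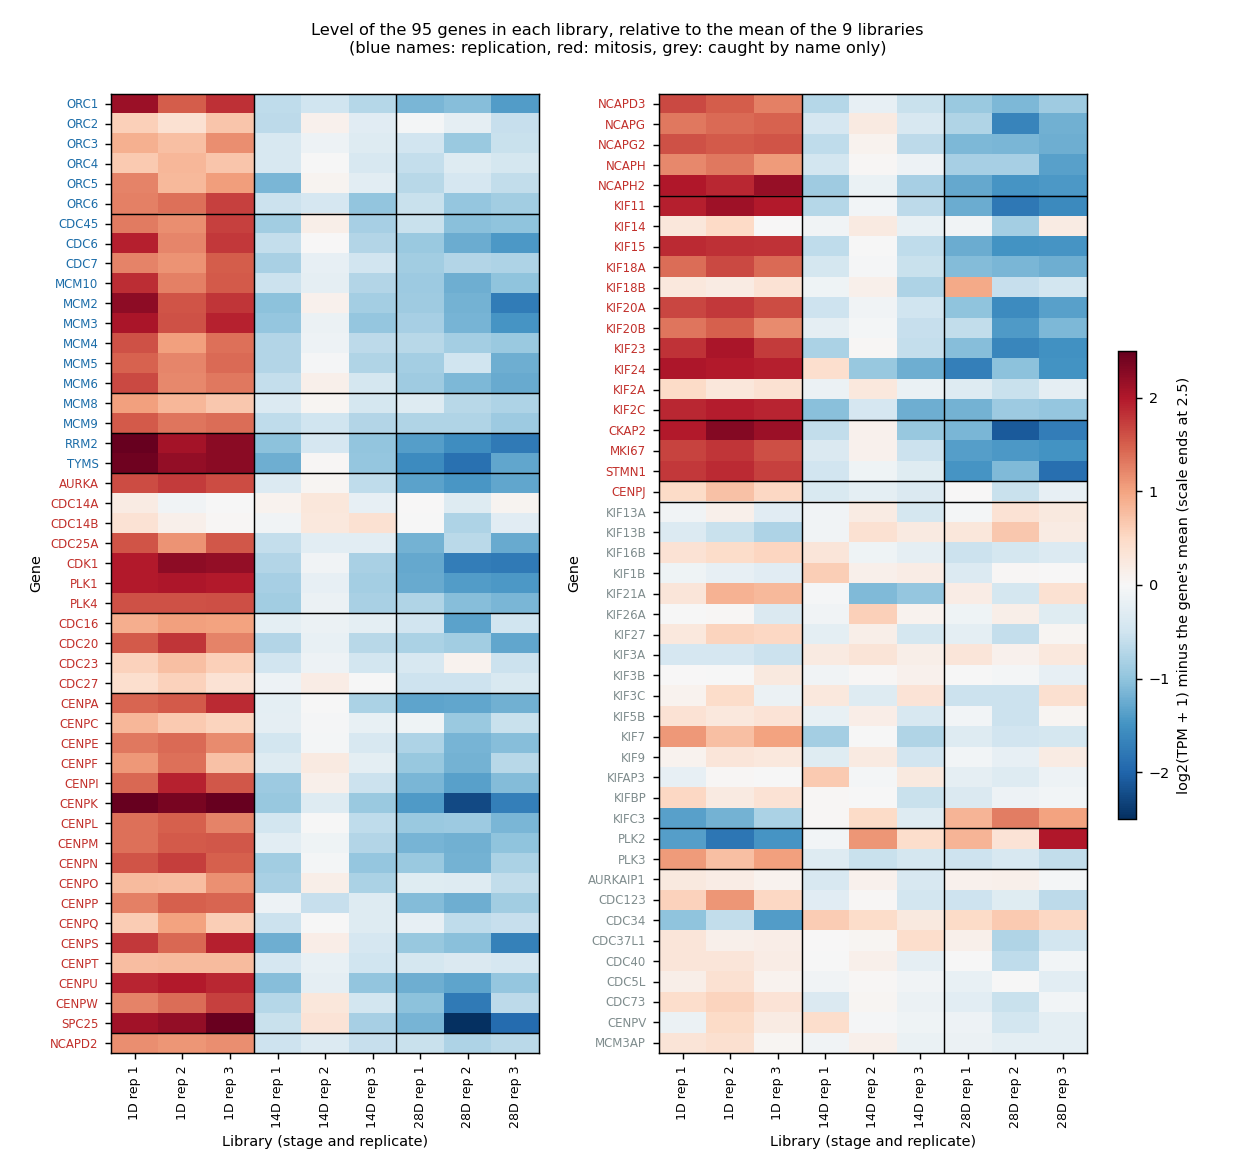
Level of each of the 95 genes (rows, grouped by role) in the 9 libraries (columns) as log2(TPM + 1) minus the gene's mean over the libraries, red for higher and blue for lower. Nearly all replication genes (blue names) and mitosis genes (red names) are high in the 3 libraries at 1D, while the genes matched by name only (grey names) show no common direction.

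The drop was far along by 14D. The median replication gene stood at 18.0% of its 1D mean at 14D and at 12.5% at 28D, and the median mitosis gene at 23.6% and 12.5%. All 19 replication genes and 47 of 49 mitosis genes had their highest stage mean at 1D. The stage means stepped down at both intervals (13 days, then 14 days) in 19 replication genes and 43 mitosis genes. Of the 27 genes matched by name only, 18 were highest at 1D and 14 stepped down at both intervals. Among all 11951 genes tested, 7882 had a change below 0 at 14D relative to 1D and 7142 at 28D relative to 14D. These are counts of single intervals. How many of all genes tested were highest at 1D or stepped down at both intervals was not counted. At 28D the mean was below 1 TPM for 5 replication genes and 4 mitosis genes. No gene highest at 1D could be below 1 TPM there, because the rule required a mean of at least 1 TPM.

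At 28D relative to 1D all 19 replication genes and 46 of 49 mitosis genes were lower and none higher. Of all genes tested, 43.9% were lower and 16.4% higher, or 29.6% and 28.5% after rescaling. The median change was -2.24 for replication and -2.58 for mitosis, against -0.38 for all genes tested. After rescaling 18 and 45 were lower, ORC2 and the phosphatase CDC14B having lost their calls. CDC14A, KIF14 and KIF18B were the 3 mitosis genes that did not pass on the deposited values. The call of CDC14B (limma adjusted p = 0.0494) was also lost on leaving out 7 of the 9 libraries in turn, all but 14D replicate 1 and 28D replicate 1.

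Deoxynucleotide supply fell furthest of the replication roles. RRM2, the small subunit of ribonucleotide reductase, had 129, 80.5 and 90.8 TPM at 1D, 8.46, 13.3 and 8.72 TPM at 14D, and 6.42, 5.55 and 4.63 TPM at 28D. TYMS, which makes thymidylate, had 40.1, 33.6 and 35.4 TPM at 1D, 2.28, 6.80 and 2.88 TPM at 14D, and 1.56, 1.08 and 2.07 TPM at 28D. For both genes every library lay below every library of the stage before, and 1D stood far above the rest. At 14D relative to 1D the log2 change was -3.17 ± 0.22 for RRM2 (SE, limma adjusted p = 5.53e-06) and -3.01 ± 0.29 for TYMS (limma adjusted p = 2.64e-05). Their 28D means were 5.53% and 4.32% of those at 1D.

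The licensing and helicase genes fell together, 9 of 9 at 14D relative to 1D, with a median change of -1.92. Of all genes tested, 39.2% fell there. MCM3 had 62.9, 45.9 and 58.5 TPM at 1D, 6.96, 13.1 and 6.93 TPM at 14D, and 7.78, 5.97 and 4.59 TPM at 28D. MCM2 had 56.7, 35.5 and 41.6 TPM at 1D, 5.02, 12.3 and 5.80 TPM at 14D, and 5.61, 4.45 and 2.66 TPM at 28D. MCM4 had 60.8, 40.6 and 52.4 TPM at 1D, 11.4, 17.8 and 12.1 TPM at 14D, and 11.7, 10.4 and 9.80 TPM at 28D. These helicase subunits separated 1D from the later stages without overlap, while their 14D and 28D libraries overlapped. MCM2 to MCM6 sit in a ring in equal number, and their stage means spanned 33.1 to 55.8 TPM at 1D, 7.72 to 14.7 TPM at 14D and 4.24 to 10.7 TPM at 28D. MCM6 fell by 1.69 ± 0.21 (log2, SE) at 14D relative to 1D (limma adjusted p = 0.000106) and MCM5 by 1.88 ± 0.24 (limma adjusted p = 0.00012). All 9 genes of the role were lower at 14D after rescaling too, against 25.9% of all genes tested. CDC6, the loader of the ring, had 15.9, 9.31 and 14.0 TPM at 1D, 1.93, 3.41 and 1.64 TPM at 14D, and 1.32, 0.87 and 0.62 TPM at 28D. CDC45, MCM10 and CDC7, which act when the helicase starts, had 28D means of 1.19, 0.79 and 0.72 TPM, against 1D means of 9.52, 9.84 and 6.34 TPM.

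Within the origin recognition complex the subunits fell unequally. ORC1, the subunit whose amount changes over the cell cycle in mammals, had 21.6, 13.7 and 17.2 TPM at 1D, 2.30, 2.63 and 2.14 TPM at 14D, and 1.33, 1.47 and 0.94 TPM at 28D. ORC6 had 10.1, 11.0 and 14.2 TPM at 1D, 2.20, 2.49 and 1.34 TPM at 14D, and 2.17, 1.38 and 1.53 TPM at 28D. Both dropped in every library after 1D, to 28D means of 7.15% and 14.4% of the 1D mean. ORC4 had 32.4, 37.2 and 33.4 TPM at 1D, 15.1, 20.3 and 15.1 TPM at 14D, and 13.2, 16.1 and 14.7 TPM at 28D, a 28D mean of 42.7% of that at 1D. ORC3 and ORC5 kept 30.7% and 27.3% of their 1D mean. ORC2 kept the most, 50.9%, and its change at 14D relative to 1D was -0.83 ± 0.22 (SE, limma adjusted p = 0.00975). The differences between subunits were not tested.

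MCM8 and MCM9, relatives of the helicase subunits that act in repair and meiosis, were low throughout and fell too. MCM9 had 6.36, 5.44 and 5.66 TPM at 1D, 0.64, 0.80 and 0.53 TPM at 14D, and 0.52, 0.52 and 0.36 TPM at 28D. MCM8 had 4.92, 4.20 and 3.68 TPM at 1D, 1.30, 2.04 and 1.16 TPM at 14D, and 1.35, 0.80 and 0.72 TPM at 28D. Both had no library after 1D as high as any at 1D. Every MCM9 library after 1D lay below 1 TPM, so MCM9 met the filter (1 TPM or more in at least 3 libraries) through its 1D libraries alone. A gene this low at the later ages could be tested only if it was high at 1D. The filter thus left MCM9 no way to be counted as rising at 14D or 28D relative to 1D. CDC7 had 0.71, 1.57 and 1.15 TPM at 14D and 0.64, 0.78 and 0.74 TPM at 28D. It too met the filter only with help of its 1D libraries. CDC7, MCM8, MCM9, MCM10, CDC25A, PLK4 and CENPO also needed their 1D level to reach the mean of 1 TPM that the rule required. So did PLK3 and KIF9 of the genes matched by name only, and KIF9 met the filter too only with help of its 1D libraries. Where these genes were counted as falling, the counts carry that limit. MCM9 was tested in 6 of the 9 fits that left out a library.

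**Figure D2:**
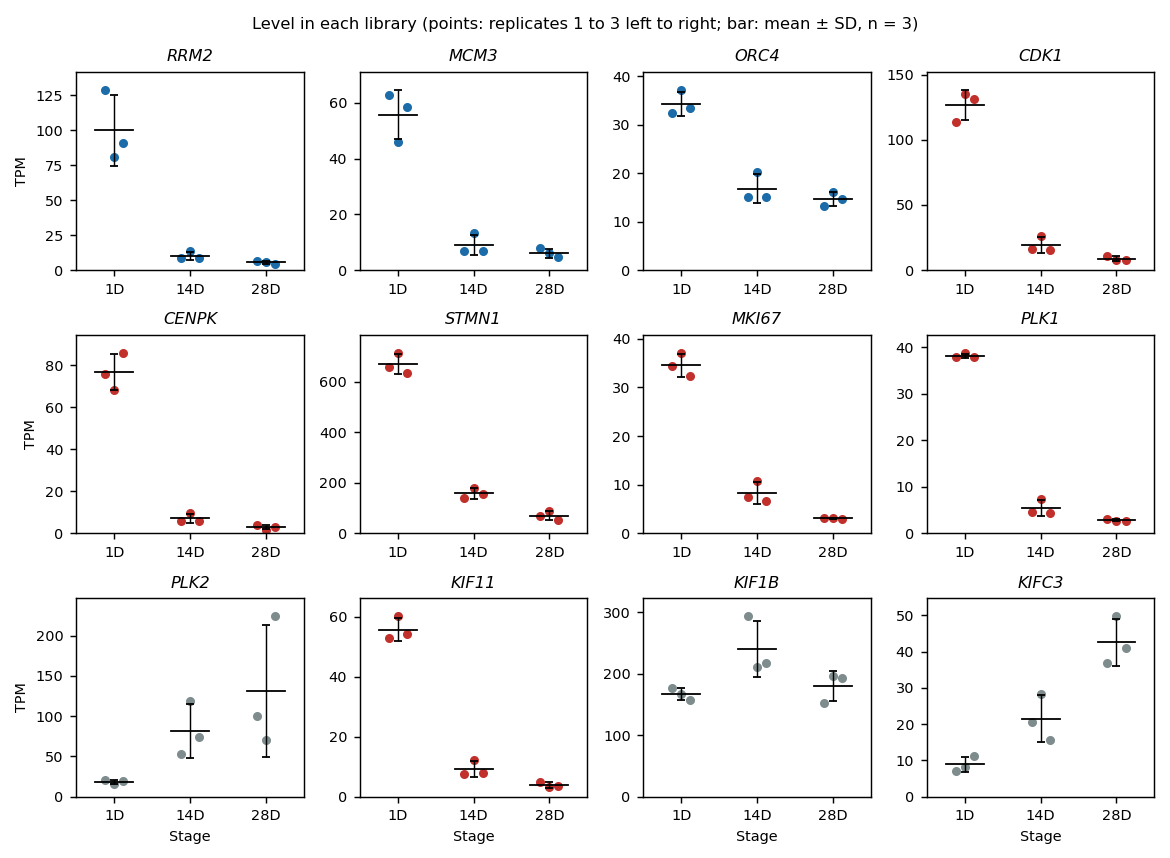
TPM (vertical axes, each from 0) of 12 genes in every library at 1D, 14D and 28D, with points for replicates 1 to 3 and bars for the mean ± SD (n = 3), blue for replication, red for mitosis and grey for genes matched by name only. RRM2, MCM3, CDK1, CENPK, STMN1, MKI67, PLK1 and KIF11 drop steeply between 1D and 14D and ORC4 less so, whereas PLK2 and KIFC3 are lowest at 1D and KIF1B is highest at 14D.

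Of 7 mitotic kinases and phosphatases, 5 fell at 14D relative to 1D, and 5 after rescaling. Of all genes tested, 39.2% fell there, or 25.9% after rescaling. The changes of the 7 ran from -2.68 to 0.02. CDK1, the kinase that starts mitosis, had 113, 135 and 131 TPM at 1D, 16.4, 26.4 and 15.5 TPM at 14D, and 10.9, 7.71 and 7.56 TPM at 28D. PLK1 had 37.9, 38.8 and 37.9 TPM at 1D, 4.49, 7.47 and 4.43 TPM at 14D, and 3.11, 2.72 and 2.63 TPM at 28D. AURKA, which builds the spindle poles, had 24.6, 26.7 and 24.3 TPM at 1D, 5.50, 7.48 and 4.30 TPM at 14D, and 2.24, 1.99 and 2.34 TPM at 28D. Each kinase stepped down at both intervals without overlap between stages. At 14D relative to 1D the log2 change was -2.68 ± 0.21 for CDK1 (SE, limma adjusted p = 9.58e-06), -2.63 ± 0.19 for PLK1 (limma adjusted p = 5.69e-06) and -1.98 ± 0.18 for AURKA (limma adjusted p = 1.98e-05). PLK4, the kinase of centriole copying, and CDC25A, a phosphatase that activates cyclin-dependent kinases, also fell, to 28D means of 8.85% and 9.43% of 1D. The phosphatases CDC14A and CDC14B did not pass the test at 14D. CDC14A had 7.58, 6.004 and 6.39 TPM at 1D, 6.93, 8.06 and 5.46 TPM at 14D, and 6.52, 4.98 and 6.85 TPM at 28D. Its libraries overlapped between all stages.

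The 4 subunits or activators of the anaphase-promoting complex that carry a CDC name all fell at 14D relative to 1D, by unequal amounts. Of all genes tested, 39.2% fell there. After rescaling 3 of the 4 fell, against 25.9% of all genes tested. Subunits of the complex with other names were not analysed here. CDC20, the activator that is made for mitosis, had 54.0, 64.8 and 44.0 TPM at 1D, 10.4, 15.6 and 10.7 TPM at 14D, and 9.91, 9.42 and 6.72 TPM at 28D. CDC23, a core subunit, had 70.4, 79.7 and 71.5 TPM at 1D, 33.7, 42.8 and 34.1 TPM at 14D, and 35.5, 50.4 and 32.4 TPM at 28D. CDC20 ended at 15.99% of its 1D mean and CDC23 at 53.4%. CDC27 and CDC16, other core subunits, ended at 51.8% and 28.8%. The call of CDC27 at 14D (limma adjusted p = 0.0211) was lost without 1D replicate 1, 1D replicate 2, 14D replicate 1 or 14D replicate 3 (limma adjusted p up to 0.0824).

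The genes counted as centromere and kinetochore all fell, 17 of 17 at 14D and 17 of 17 at 28D relative to 1D. After rescaling 17 of 17 also fell in both comparisons. Of all genes tested, 39.2% fell at 14D and 43.9% at 28D, or 25.9% and 29.6% after rescaling. CENPV, counted among the genes matched by name only, is not one of the 17. Its changes relative to 1D were -0.08 at 14D and -0.45 at 28D, and neither was called. CENPK, of the inner kinetochore network, had 76.1, 68.4 and 85.7 TPM at 1D, 5.94, 9.69 and 6.03 TPM at 14D, and 4.001, 1.79 and 3.08 TPM at 28D. SPC25, of the outer NDC80 complex that binds spindle fibres, had 74.3, 79.0 and 95.9 TPM at 1D, 10.8, 21.1 and 8.78 TPM at 14D, and 6.78, 1.84 and 3.60 TPM at 28D. CENPK had the largest fall of the 95 genes at both ages relative to 1D, -3.26 ± 0.24 at 14D (SE, limma adjusted p = 6.84e-06) and -4.33 ± 0.24 at 28D (limma adjusted p = 6.36e-07). SPC25 followed at 28D with -4.16 ± 0.37 (limma adjusted p = 8.55e-06). CENPA, the histone H3 variant that marks centromeres, had 11.8, 12.6 and 16.1 TPM at 1D, 2.98, 3.64 and 1.72 TPM at 14D, and 0.89, 0.90 and 1.03 TPM at 28D. CENPS, which also works in the Fanconi anaemia repair pathway, was the highest of the 17 at 1D with 138, 109 and 155 TPM, and had 16.4, 44.3 and 29.5 TPM at 14D and 20.1, 18.8 and 11.5 TPM at 28D. Both were lower in every later library than in any at 1D. CENPT kept more than the others: it had 61.7, 62.7 and 62.7 TPM at 1D, 26.6, 31.4 and 25.2 TPM at 14D, and 26.1, 28.0 and 26.6 TPM at 28D. Its 28D mean was 43.1% of that at 1D, against a median of 14.2% over the 17 genes. CENPM fell by 1.85 ± 0.17 (log2, SE) at 14D relative to 1D (limma adjusted p = 2.1e-05) and CENPF, a large protein of late interphase and mitosis, by 1.17 ± 0.23 (limma adjusted p = 0.0016).

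The NCAP subunits of condensin I and condensin II fell together, 6 of 6 at 14D and at 28D relative to 1D. Of all genes tested, 39.2% and 43.9% fell. The rule did not take the condensin ATPases, of which SMC2 fell at 14D and SMC4 did not, as given below. The 3 subunits of condensin II, which works in the nucleus before the envelope opens, changed by -3.42 to -2.45 at 28D relative to 1D. Those of condensin I changed by -2.60 to -1.81. NCAPH2 of condensin II had 36.1, 33.3 and 40.8 TPM at 1D, 4.03, 7.31 and 4.21 TPM at 14D, and 2.83, 2.36 and 2.41 TPM at 28D. NCAPD2 of condensin I had 31.3, 29.7 and 31.3 TPM at 1D, 9.11, 10.4 and 8.70 TPM at 14D, and 8.72, 7.42 and 8.02 TPM at 28D. NCAPH2 thus ended at 6.89% of its 1D mean and NCAPD2 at 26.2%. NCAPG and NCAPH of condensin I ended at 13.0% and 16.7%.

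The proliferation markers were led by STMN1, stathmin, which takes microtubules apart. STMN1 had 659, 713 and 636 TPM at 1D, 138, 179 and 157 TPM at 14D, and 69.4, 89.7 and 51.9 TPM at 28D. MKI67, the coat of mitotic chromosomes known as Ki-67, had 34.4, 37.0 and 32.3 TPM at 1D, 7.55, 10.7 and 6.58 TPM at 14D, and 3.24, 3.07 and 2.90 TPM at 28D. CKAP2, a spindle protein, had 96.3, 121 and 108 TPM at 1D, 15.2, 25.8 and 11.8 TPM at 14D, and 10.2, 4.80 and 6.48 TPM at 28D. All 3 markers stepped down at both intervals with no overlap between stages. CENPJ, a centriole protein with a CENP name, fell less, to a 28D mean of 46.6% of that at 1D.

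The kinesin genes split by the roles assigned here. Of 11 genes counted as spindle kinesins, 8 fell at 14D and 9 at 28D relative to 1D, and as many after rescaling. Of all genes tested, 39.2% and 43.9% fell, or 25.9% and 29.6% after rescaling. KIF24, which could also be placed with the cilium kinesins, was counted among the 11. Its change at 28D relative to 1D was -3.39. KIF11, the motor that pushes spindle poles apart, had 52.9, 60.2 and 54.3 TPM at 1D, 7.57, 12.3 and 7.89 TPM at 14D, and 4.95, 3.04 and 3.63 TPM at 28D. KIF20A, a motor of cell cleavage, had 26.8, 28.9 and 26.1 TPM at 1D, 5.13, 7.24 and 5.20 TPM at 14D, and 3.37, 1.96 and 2.41 TPM at 28D. KIF23, a partner in cleavage, ended at 8.07% of its 1D mean. KIF2A, KIF14 and KIF18B did not pass the test at 14D, and KIF14 and KIF18B did not at 28D. KIF18B had 3.97, 3.76 and 4.32 TPM at 1D, 2.88, 3.57 and 1.45 TPM at 14D, and 6.997, 1.79 and 2.04 TPM at 28D, so 1 library at 28D stood above all others. KIF2A, which shortens microtubules in nerve cells as well as in spindles, had 31.8, 27.8 and 29.6 TPM at 1D, 20.2, 27.4 and 20.0 TPM at 14D, and 17.8, 15.1 and 19.1 TPM at 28D. Its fall passed at 28D relative to 1D (-0.75 ± 0.16, SE, limma adjusted p = 0.00257).

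**Figure D3:**
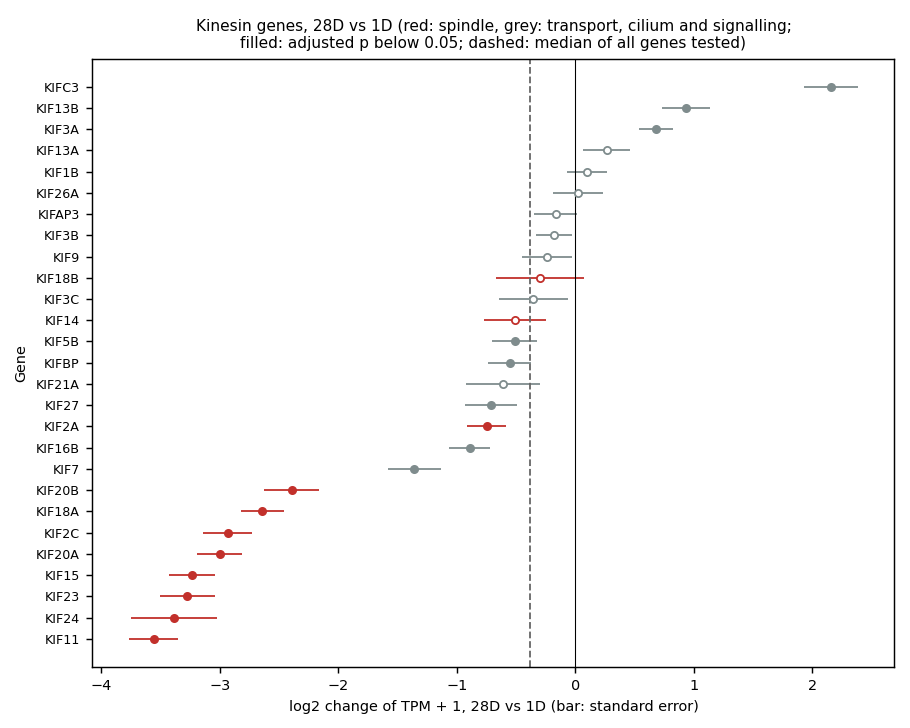
Log2 change of TPM + 1 at 28D relative to 1D (horizontal axis, bars are standard errors, n = 3 libraries per stage) for 27 kinesin-family genes, red for spindle kinesins and grey for the others, with filled points for adjusted p below 0.05. Apart from KIF2A, KIF14 and KIF18B, the genes counted as spindle kinesins, KIF24 among them, lie below every grey point. KIFC3, KIF13B and KIF3A are the filled points above 0.

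Of the 16 kinesins and partners of transport, cilium and signalling, 4 rose and 5 fell at 14D relative to 1D, and 3 rose and 5 fell at 28D relative to 1D. The 5 that fell are no larger a share than the 39.2% and 43.9% of all genes tested that fell in these comparisons. Of all genes tested, 13.6% rose at 14D and 16.4% at 28D. The balance turned over after rescaling, with 6 up and 2 down at 14D and 5 up and 2 down at 28D. Over all genes tested it shifted upward too, to 24.5% up and 25.9% down at 14D and 28.5% up and 29.6% down at 28D. KIFC3, a minus-end motor of epithelial junctions, rose most. It had 7.15, 8.28 and 11.1 TPM at 1D, 20.5, 28.4 and 15.7 TPM at 14D, and 37.0, 49.7 and 41.1 TPM at 28D, with no overlap between stages. Its change at 28D relative to 1D was 2.16 ± 0.23 (SE, limma adjusted p = 2.64e-05). KIF3A, a motor that builds cilia, had 4.18, 4.21 and 3.81 TPM at 1D, 7.18, 7.76 and 6.75 TPM at 14D, and 7.60, 6.51 and 7.34 TPM at 28D. KIF13B had 2.48, 1.99 and 1.56 TPM at 1D, 3.12, 4.67 and 4.14 TPM at 14D, and 4.30, 5.996 and 4.05 TPM at 28D. Both were higher in every later library than in any at 1D. KIF1B, which carries mitochondria and synaptic vesicle precursors, was the most abundant of the 16, with 177, 166 and 158 TPM at 1D, 293, 211 and 218 TPM at 14D, and 152, 196 and 192 TPM at 28D. It rose at 14D (0.51 ± 0.16, SE, limma adjusted p = 0.0244) but did not pass at 28D relative to 1D (0.10 ± 0.16, limma adjusted p = 0.624), where it passed only after rescaling (0.52, limma adjusted p = 0.0366). The rise at 14D was not called without 1D replicate 2, 1D replicate 3 or 14D replicate 1 (limma adjusted p = 0.0632, 0.0809 and 0.0894), and without 14D replicate 1 it was 0.36. KIF5B, the conventional transport kinesin, had 51.7, 48.8 and 51.6 TPM at 1D, 35.5, 45.1 and 30.4 TPM at 14D, and 38.4, 27.3 and 41.7 TPM at 28D. Its fall at 28D relative to 1D (-0.51 ± 0.19, SE, limma adjusted p = 0.0383) was not called after rescaling, nor without any 1D replicate or without 28D replicate 1 or 2 (limma adjusted p up to 0.128). KIF7, which tunes Hedgehog signalling at the cilium, fell by 1.36 ± 0.22 (log2, SE) at 28D relative to 1D (limma adjusted p = 0.000441).

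The 2 Polo kinases that respond to stress moved apart. PLK2 had 20.6, 15.1 and 19.1 TPM at 1D, 52.6, 119 and 74.6 TPM at 14D, and 100.4, 69.7 and 224 TPM at 28D. Its change was 2.04 ± 0.40 at 14D (SE, limma adjusted p = 0.00169) and 2.62 ± 0.40 at 28D (limma adjusted p = 0.000267) relative to 1D, the largest rise of the 95 genes in each comparison, and its later libraries spread widely. PLK3 had 6.16, 4.73 and 5.95 TPM at 1D, 1.71, 1.33 and 1.52 TPM at 14D, and 1.40, 1.58 and 1.22 TPM at 28D, a fall in every later library. It reached the mean limit of the rule only with its 1D level, so its counted fall carries that limit.

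Of the other 9 genes counted by name only, CDC34, a ubiquitin-conjugating enzyme that marks cell-cycle inhibitors and other proteins for breakdown, rose. It had 29.95, 39.6 and 22.7 TPM at 1D, 95.3, 84.6 and 72.5 TPM at 14D, and 85.7, 97.2 and 87.3 TPM at 28D. Its change at 14D relative to 1D was 1.45 ± 0.20 (SE, limma adjusted p = 0.000179). CDC123 and CDC73, which work in translation and transcription, fell at 14D relative to 1D by 0.97 ± 0.20 and 0.61 ± 0.17 (log2, SE, limma adjusted p = 0.00252 and 0.0124), and CDC73 was not called after rescaling. The splicing factor CDC5L changed by -0.25 ± 0.14 there and had the opposite sign after rescaling (0.10). The 27 genes caught by name had a median change of -0.25 at 14D relative to 1D, close to that of all genes tested, with 8 lower and 6 higher, or 4 lower and 8 higher after rescaling. At 28D relative to 1D, 12 were lower and 5 higher, or 4 lower and 7 higher after rescaling. The shares of all genes tested at 14D were 39.2% lower and 13.6% higher, or 25.9% and 24.5% after rescaling. At 28D they were 43.9% and 16.4%, or 29.6% and 28.5% after rescaling.

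**Figure D4:**
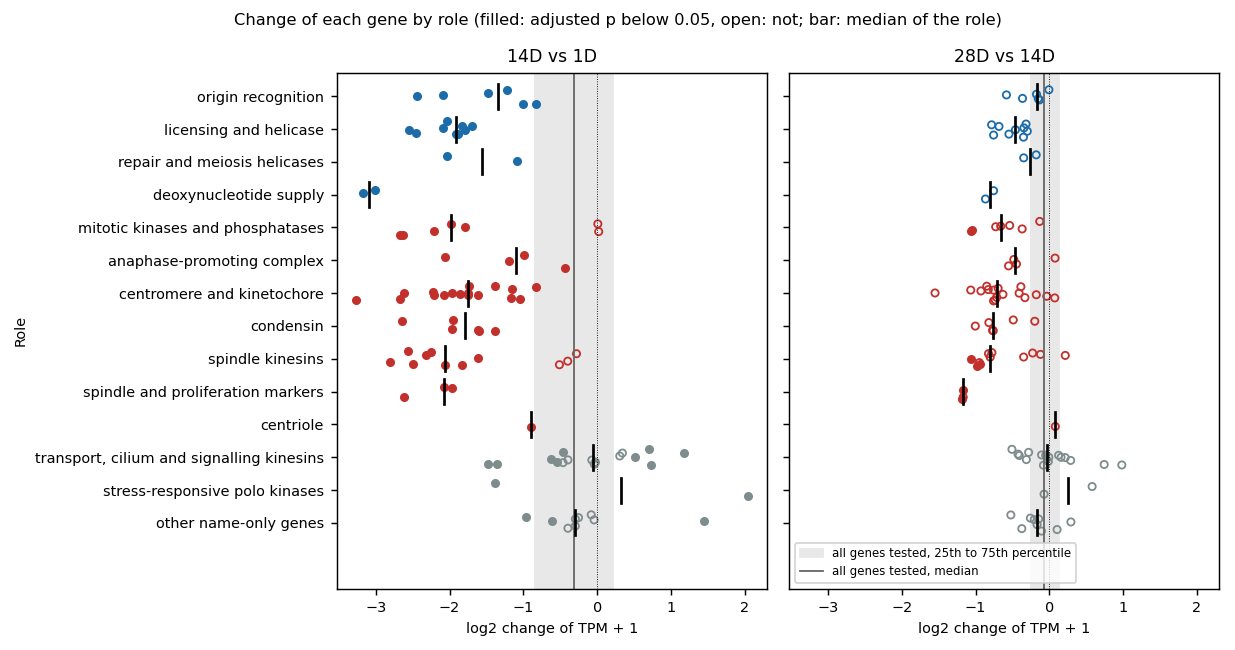
Log2 change of TPM + 1 for each of the 95 genes (points, filled where the adjusted p is below 0.05) by role, at 14D relative to 1D (left) and 28D relative to 14D (right), with black bars for the median of each role and a grey band for the quartiles of all genes tested. The medians of all replication roles (blue) and mitosis roles (red) lie left of the band in the first interval, and in the second all of them do except origin recognition and the centriole gene.

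Between 14D and 28D the change was smaller and few genes passed the test. In limma 7 of the 95 genes fell and none rose, while 0.87% of all genes tested fell and 0.544% rose. All 7 are mitosis genes: AURKA, CDK1, MKI67, STMN1, KIF11, KIF15 and KIF20A. MKI67 and STMN1 changed by -1.17 ± 0.18 and -1.18 ± 0.19 (SE, limma adjusted p = 0.0166 and 0.02). AURKA, KIF11 and CDK1 changed by -1.06 ± 0.18, -1.06 ± 0.21 and -1.05 ± 0.21 (SE, limma adjusted p = 0.0248, 0.0393 and 0.0439). The count of 7 is fragile: it was 0 in a fit of these 2 stages alone and 0 without 28D replicate 3. It was 4 when 14D replicate 2 was left out, 3 for 14D replicate 3, 3 for 28D replicate 1, 2 for 28D replicate 2 and 3 for each 1D replicate in turn. After rescaling 9 members fell, against 0.887% of all genes tested. The calls over the whole table dropped in the same fits. The genes called lower there went from 104 to 17 in the fit of these 2 stages alone. They went to 11 without 28D replicate 3 and to 25 without 14D replicate 3.

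Counted library by library, 31 of 49 mitosis genes and 8 of 19 replication genes had every 28D library below every 14D library, as did 13% of all genes tested. None of these 68 genes had every 28D library above every 14D library, as 6.75% of all genes tested did. The median change at 28D relative to 14D was -0.73 for mitosis and -0.35 for replication, against -0.07 for all genes tested. No replication gene was called by limma, and 6 were lower and 0 higher at an unadjusted p below 0.05. The same limit gave 1159 lower and 737 higher among all 11951 genes tested. Whether mitosis and replication genes differed in this interval was not tested. The changes of the 4 origin subunits ORC2 to ORC5 ran from -0.36 to -0.01, and those of the 5 helicase subunits MCM2 to MCM6 from -0.78 to -0.32. KIFC3 was the 1 gene of the 95 with every 28D library above every 14D library (0.98 ± 0.23, SE, limma adjusted p = 0.0702), and it was called after rescaling (adjusted p = 0.0475) and without 14D replicate 2 (adjusted p = 0.0339).

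Libraries of the same stage differed in their replication and mitosis levels. Summed over the 19 replication genes, the libraries held 609, 450 and 527 TPM at 1D, 93.7, 157 and 100.1 TPM at 14D, and 88.7, 81.3 and 71.5 TPM at 28D. Summed over the 49 mitosis genes they held 2238, 2375 and 2287 TPM at 1D, 535, 752 and 564 TPM at 14D, and 401, 366 and 342 TPM at 28D. The 14D replicate 2 was the highest of its stage in both sums. It was the highest of the 3 in 19 of 19 replication genes and 46 of 49 mitosis genes, against 59.5% of all genes tested, and after rescaling in 16 and 36 genes against 34.4%. Its ratio to the mean of replicates 1 and 3 had a median of 1.61 over the replication genes, 1.53 over the mitosis genes and 1.20 over the genes matched by name only. It was also the highest of its stage in the marker sums of endothelial cells (1050 TPM), macrophages and lymphocytes (676 TPM), red cells (637 TPM), smooth muscle and pericytes (796 TPM) and fibroblasts (2267 TPM), and the lowest in that of skeletal muscle (59126 TPM). After rescaling the fibroblast and the smooth muscle and pericyte sums were no longer the highest there. The sum of muscle stem cell and myoblast markers was not highest in 14D replicate 2. It was 970, 750 and 690 TPM in replicates 1 to 3 at 14D, and 1092, 721 and 784 TPM after rescaling. The part of these differences in its replication and mitosis levels was not tested. Without this library 74 of the 95 genes fell at 14D relative to 1D, against 71 with it. Among all genes tested the number that fell went up as well, to 4844 of 11883 from 4688 of 11951. The gain thus does not set the 95 genes apart.

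At 1D the sums ran in different orders. Replicate 2 had the lowest value of the 3 in 16 of 19 replication genes and the highest in 28 of 49 mitosis genes, against 31.5% and 36% of all genes tested. After rescaling it was the lowest in 16 replication genes and the highest in 22 mitosis genes, against 35.7% and 34.2%, while replicate 3 was the highest in 23 mitosis genes and had the highest rescaled mitosis sum. The ratio of replicate 2 to the mean of the other 1D libraries, as deposited, had a median of 0.80 over replication genes and 1.06 over mitosis genes. The summed replication level was 0.19 of the summed mitosis level there, against 0.27 and 0.23 in replicates 1 and 3.

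**Figure D5:**
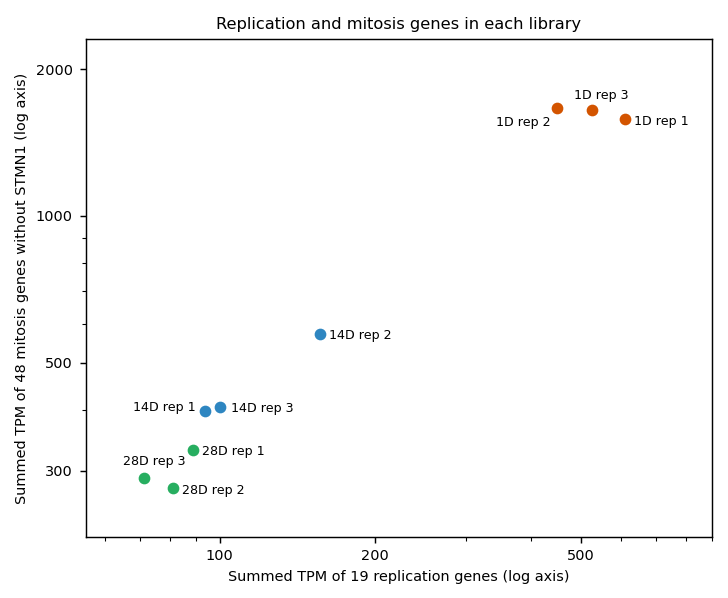
Summed TPM of the 19 replication genes (horizontal log axis) against that of 48 mitosis genes without STMN1 (vertical log axis) in each of the 9 libraries, coloured by stage. The libraries at 1D lie apart at the upper right with replicate 2 leftmost, 14D replicate 2 lies above the other libraries of its stage, and the 28D libraries lie lowest.

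Other genes of the same pathways, from lists of textbook members, moved likewise. Of 33 measured replication-fork genes, 32 fell and none rose at 14D relative to 1D, and of 33 further mitosis genes, 32 fell and none rose, against 39.2% and 13.6% of all genes tested. After rescaling 30 and 31 fell. DTL of the fork list was tested in 6 of the 9 fits that left out a library, like MCM9. It thus met the filter on the fewest libraries allowed, and it was lower at both later ages. Its counted fall carries the limit given for MCM9. PCNA, the sliding clamp of the polymerases, had 273, 239 and 248 TPM at 1D, 49.5, 65.5 and 47.1 TPM at 14D, and 53.1, 42.9 and 48.5 TPM at 28D. UBE2C, the ubiquitin-conjugating enzyme of the anaphase-promoting complex, averaged 118 ± 14.0 at 1D, 22.1 ± 9.86 at 14D and 13.1 ± 5.72 TPM at 28D (SD, n = 3 each). The exceptions were GMNN, geminin, which blocks a second licensing, and SMC4, the condensin ATPase. GMNN had 57.6, 45.3 and 48.1 TPM at 1D, 49.7, 53.3 and 40.4 TPM at 14D, and 53.8, 32.1 and 59.0 TPM at 28D. SMC4 had 19.8, 20.7 and 18.7 TPM at 1D, 16.3, 28.3 and 21.0 TPM at 14D, and 16.8, 14.4 and 15.8 TPM at 28D, and its change at 14D relative to 1D was 0.11 (limma adjusted p = 0.653), called higher only after rescaling (adjusted p = 0.0298). SMC2, its partner in condensin, averaged 49.1 ± 3.06 at 1D, 10.9 ± 3.62 at 14D and 5.82 ± 0.86 TPM at 28D (SD, n = 3 each). At 28D relative to 14D, TOP2A of the fork list and PBK, CCNB3, ANLN and ASPM of the mitosis list fell, while 0.87% of all genes tested did. After rescaling 1 gene of the fork list and 10 of the mitosis list fell, against 0.887% of all genes tested. Each of these 5 calls on the deposited values was lost on leaving out some library: 4 of the 9 for TOP2A, 4 for CCNB3, 7 for ANLN, 8 for ASPM and 8 for PBK (limma adjusted p up to 0.125), 28D replicate 3 among them for all 5.

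Among 27 genes that control entry into the cycle, 17 fell and none rose at 14D relative to 1D, while 39.2% of all genes tested fell and 13.6% rose. After rescaling 17 fell and 4 rose, against 25.9% and 24.5% of all genes tested. E2F1, an activator of replication genes, averaged 53.8 ± 13.2 at 1D, 10.6 ± 1.32 at 14D and 6.55 ± 1.54 TPM at 28D (SD, n = 3 each). FOXM1, an activator of mitosis genes, averaged 12.3 ± 1.92 at 1D, 2.41 ± 0.73 at 14D and 1.01 ± 0.23 TPM at 28D. Their falls at 14D passed (limma adjusted p = 3.02e-05 and 2.99e-05). CDKN1B, the inhibitor p27, averaged 132 ± 27.8 at 1D, 109 ± 18.7 at 14D and 75.3 ± 7.62 TPM at 28D and was lower at 28D relative to 1D (limma adjusted p = 0.00504), but not after rescaling (adjusted p = 0.148). BTG2, an antiproliferative gene induced by stress, was the 1 gene of the 27 that rose at 28D relative to 14D (limma adjusted p = 0.0325). That call was lost without 1D replicate 3, 14D replicate 3, 28D replicate 1 or 28D replicate 3 (limma adjusted p up to 0.104). It had 20.4, 7.06 and 8.24 TPM at 1D, 22.4, 22.8 and 11.3 TPM at 14D, and 81.7, 63.5 and 164 TPM at 28D. Replicate 3 at 28D, the highest for BTG2, was also the highest for PLK2.

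Markers of cell types that could carry these transcripts shifted over the same ages. The summed level of 9 fibroblast markers was 7326 to 9096 TPM at 1D, 2059 to 2267 TPM at 14D and 1035 to 1121 TPM at 28D, with 8 of 9 lower at 14D relative to 1D. That of 11 muscle stem cell and myoblast markers was 1578 to 1788 TPM at 1D, 690 to 970 TPM at 14D and 597 to 787 TPM at 28D, with 3 of 11 lower at 14D and 6 lower and 1 higher at 28D relative to 1D. Of all genes tested, 39.2% were lower at 14D and 43.9% at 28D, so these counts do not set the list apart. After rescaling 2 and 4 were lower, against 25.9% and 29.6%. The 8 fibroblast markers stayed lower after rescaling. DES, which fibres also express, made up 1040 to 1308 TPM of the muscle stem cell and myoblast sum at 1D. PAX7, which defines satellite cells, had 8.99, 8.25 and 6.97 TPM at 1D, 6.29, 3.75 and 5.06 TPM at 14D, and 3.21, 3.46 and 2.83 TPM at 28D. PAX7 was lower at 14D, a call lost without 1D replicate 1, 1D replicate 2 or 14D replicate 2 (limma adjusted p up to 0.075) and after rescaling (adjusted p = 0.27). Endothelial markers, 8 measured, summed to 405 to 482 TPM at 1D, 523 to 1050 TPM at 14D and 808 to 831 TPM at 28D, with 5 higher at 14D relative to 1D, against 13.6% of all genes tested. Macrophage and lymphocyte markers, 6 measured, summed to 37.7 to 87.0 TPM at 1D, 392 to 676 TPM at 14D and 410 to 686 TPM at 28D, with 5 higher at 14D, and CD79B of B cells was at 0 in 3 libraries. After rescaling 7 endothelial and 5 macrophage and lymphocyte markers were higher at 14D, against 24.5% of all genes tested. Red cell markers, 4 measured, summed to 467 to 730 TPM at 1D, 197 to 637 TPM at 14D and 288 to 507 TPM at 28D. The haemoglobin gene HBAD among them had 0 to 1.30 TPM at the later ages, against 247 to 420 TPM at 1D. HBAD was the 1 gene of the 4 with a change below 0 relative to 1D, at 14D and at 28D. The median change of the 4 was 0.32 at 14D and 0.60 at 28D, and none was called higher. After rescaling 2 of the 4 were higher at 28D relative to 1D, against 28.5% of all genes tested. Smooth muscle and pericyte markers, 6 measured, summed to 490 to 673 TPM at 1D, 451 to 796 TPM at 14D and 607 to 719 TPM at 28D. Which cells the division genes came from, and the part of these shifts in their fall, was not tested.

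Some loci overlap others, and whether reads were counted by strand is not given in the sources used here, so their values are uncertain. In the reference annotation 22 of the 95 genes overlap another protein-coding gene, some by a few bases. The CENPP locus spans the matrix genes OGN, OMD, ASPN and ECM2, the STMN1 locus shares 51% of its length with an unnamed protein-coding gene, and CENPK shares 25.8% with another. KIF2C overlaps ARMH1 and CENPU overlaps PRIMPOL.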

How the data were processed

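Per the labels' protocols, breast muscle was frozen in liquid nitrogen and its RNA was extracted with Trizol. The submitters' processing notes name STAR and Cufflinks. Their roles, the genome build and the annotation are not given in the sources used here. The table of TPM was analysed as the authors deposited it. Of its 12 value columns, 9 match a label. The names of the other 3 match none, so these columns were left out and the planned 2Y comparisons were not run. The deposited lncRNA table was not used. RefSeq symbols (assembly bColLiv1.pat.W.v2) were found for 12256 of 12918 identifiers. No pair of libraries was identical. Genes with 1 TPM or more in at least 3 of 9 libraries were tested on log2(TPM + 1), with 1 mean per stage. The tool was limma 3.58.1 (R 4.3.3; lmFit, contrasts.fit and eBayes, trend on), with Benjamini-Hochberg adjustment and two-sided tests, checked on simulated data. Rescaling divided each library by its median ratio to the gene means. The closing section gives the other settings tried. Members, roles and lists were chosen with earlier results of these data known. Values are given by rule for the 4 genes of highest mean TPM per role, a list of well-known members, the 3 largest called rises and falls per comparison and every member called against the majority. Other named genes, such as CDC45, MCM10, CDC7, CDC14A, KIF7, KIF18B, CDC123, CDC73, E2F1, FOXM1, SMC2 and PAX7, were chosen after their values were seen.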

Additional observations from a re-analysis of the deposited data

How the results depend on the processing

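The falls of replication and mitosis genes at 14D and at 28D relative to 1D kept their direction and stayed within 1.5 times their count in every setting tried: another pseudocount (0.1 TPM), other filters, rescaling, quantile normalization, a fit without trend, a fit of 2 stages, and leaving out each library. Leaving out each library gave 67 to 74 members lower at 14D and 69 to 77 at 28D relative to 1D. Among all genes tested the same fits gave 3676 to 4844 lower at 14D and 4330 to 5345 at 28D. For 28D relative to 14D, the 7 members lower (7 of mitosis) became 0 (0 of mitosis) in a fit of these stages alone and 0 to 7 on leaving out each library, while the members higher, 0 of them, became 1 (KIFC3) after rescaling and 0 to 1 on leaving out each library. Over all genes tested, the 104 lower became 17 in the fit of these stages alone and 11 to 122 on leaving out each library. Same-numbered libraries shared no visible deviation from their stage means (0 of 9 pairs correlated above 0.1, range -0.07 to 0.05). That cannot show whether they were collected or handled together. With the replicate number as a block 2 members (2 of mitosis) were lower at 28D relative to 14D. Of the genes matched by name only, 8 were lower at 14D relative to 1D, against 4 after rescaling, 4 after quantile normalization and 5 to 10 on leaving out each library. At 28D relative to 1D, 12 of them were lower, against 4 after rescaling, 3 after quantile normalization and 6 to 12 on leaving out each library. Among all 11951 genes tested, the 4688 lower at 14D became 3100 after rescaling and 3140 after quantile normalization. The 5249 lower at 28D became 3538 and 3495. Signs turned for some small changes. At 14D relative to 1D, CDC5L became 0.10 after rescaling and 0.089 after quantile normalization. CENPV became 0.28 and 0.27 there and ran from -0.248 to 0.0679 on leaving out each library, positive for 1D replicate 2 and 14D replicate 3. CDC14B ran from -0.0922 to 0.148 on leaving out each library, negative for 1D replicates 2 and 3 and for 14D replicates 2 and 3. At 28D relative to 1D, AURKAIP1 became 0.31 and 0.25, CDC5L 0.0465 and 0.0222 and KIFAP3 0.24 and 0.24 after rescaling and quantile normalization. KIF5B at 28D relative to 14D became 0.00339 after rescaling and ran from -0.179 to 0.128 on leaving out each library, positive for 14D replicate 2 and 28D replicate 2. The cause was not tested. With 3 libraries per stage and no read counts, changes of genes near 1 TPM are the least certain. The 2Y settings were not run.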
